A study of Mus musculus with 20 samples.

Results

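The Zscan4 genes are a cluster of near-identical zinc finger genes that are best known for a burst of transcription in the 2-cell mouse embryo. They were taken here as every gene whose symbol begins with Zscan4, which gave 6 of the 13107 genes counted in the Myc experiment (Zscan4a, Zscan4b, Zscan4c, Zscan4d, Zscan4e and Zscan4f) and 0 of the 11210 genes listed in the hydroxyurea (HU) experiment. The genes were chosen by their fall in counts with the Myc vector in Trim33-WT cells, so that all values from the Trim33-WT libraries are given as a description, with no test. The libraries are RNA-seq of p19/Nras cells, a line of mouse liver cancer grown from an Nras-driven tumor of a p19/Arf-null mouse, so that all groups share the loss of p19/Arf and the expression of Nras. Trim33 encodes a ubiquitin ligase and transcriptional co-factor. Trim33-WT cells (sgCtrl) and the CRISPR lines Trim33-KO1 and Trim33-KO2 (sgTrim33) carried the empty pWZL vector (Ctrl) or a vector for Myc, an oncogenic transcription factor, giving 6 groups of 2 libraries. The HU experiment holds 8 libraries in 4 groups of 2, for Trim33-WT or Trim33-KO cells given vehicle or HU. It is not used further, since its table lists no gene with fewer than 29 counts over all libraries and no Zscan4 gene. The labels do not say that paired libraries came from separate cultures, so p-values may measure technical spread alone.

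Zscan4 proteins carry a SCAN domain, which binds other SCAN domains, and C2H2 zinc fingers, which bind DNA. In mouse embryonic stem cells, a small and changing fraction of the cells switches on Zscan4 together with other genes of the 2-cell embryo, a state driven by the factor Dux and held back by chromatin repressors. In that state, Zscan4 is known for its part in telomere lengthening by recombination. In bulk RNA, fewer cells that express a gene and less RNA per cell cannot be told apart.

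In mm9, the genome build of the files, the GENCODE annotation places the cluster on chromosome 7. It holds Zscan4b at chr7:11486098-11490399 (− strand), Zscan4c at chr7:11591071-11595896 (+), Zscan4d at chr7:11746992-11751497 (−), Zscan4e at chr7:11891727-11896031 (−) and Zscan4f at chr7:11983264-11988090 (+), and it has no model of Zscan4a. With the copy Zscan4-ps2, which has no row in the count table, these models span 618 kb. RefSeq lists Zscan4a as a transcribed pseudogene and Zscan4e as a pseudogene. Coding sequences of the 6 annotated copies, Zscan4-ps2 included, were between 96.4% and 99.7% identical in all 15 pairs. Zscan4c and Zscan4f were 99.6% identical, and Zscan4b and Zscan4e 99.7%. Of all stretches of 100 bases in the Zscan4f transcript, 95.4% were found unchanged in a transcript of another copy, against 84.1% for Zscan4e, 78.1% for Zscan4b, 65.8% for Zscan4c and 26.5% for Zscan4d. Zscan4d is thus the copy with most sequence of its own. How reads that match several copies were counted is not given in the sources used here, so each gene is reported alone and as the sum of the 6 rows.

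The sequences next to the start sites show how alike the copies are outside the coding sequence. The 250 bases upstream of the RefSeq start of Zscan4f (GRCm38.p6, chr7:11397665-11397914, + strand), which match mm9 at chr7:11983014-11983263, are printed with the TATA box motif TATAAAA in capitals, 31 bases before the start.

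Zscan4f: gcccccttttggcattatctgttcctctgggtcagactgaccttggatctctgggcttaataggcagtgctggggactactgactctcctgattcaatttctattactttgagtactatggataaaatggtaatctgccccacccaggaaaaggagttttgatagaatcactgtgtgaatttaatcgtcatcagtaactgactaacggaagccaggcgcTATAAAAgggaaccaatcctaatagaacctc

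RefSeq windows were found for Zscan4b, Zscan4c, Zscan4d and Zscan4f, and all 4 hold TATAAAA, which is present on either strand in 4.98% of 32851 upstream windows of 250 bases. The motif CACGTG, the E-box of Myc and Max, occurs in none of the 4 and in 6.02% of all windows. GGCGGGAA, a form of the E2f motif, also occurs in none of them and in 1.86% of all windows. These are matches of letters and say nothing of binding. Around the TATA box, the 4 copies were compared over 97 bases, of which 90 are the same in all. The 7 positions that differ between copies are in capitals.

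Zscan4b: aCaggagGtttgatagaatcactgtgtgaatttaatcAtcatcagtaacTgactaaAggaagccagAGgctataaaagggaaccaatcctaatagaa
Zscan4c: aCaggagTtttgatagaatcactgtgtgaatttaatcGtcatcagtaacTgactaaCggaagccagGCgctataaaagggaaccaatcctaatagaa
Zscan4d: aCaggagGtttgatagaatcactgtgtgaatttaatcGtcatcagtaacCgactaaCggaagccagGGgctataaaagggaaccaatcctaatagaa
Zscan4f: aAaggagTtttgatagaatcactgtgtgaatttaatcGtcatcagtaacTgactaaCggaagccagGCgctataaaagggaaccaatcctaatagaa

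Zscan4c and Zscan4f, the most alike in coding sequence of these 4, also share most of these letters.

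Total counts ranged from 14753177 to 17949430 per library. Levels are given as CPM, counts scaled to library size with edgeR's TMM factors, which ranged from 0.958 to 1.019. All 12 libraries were fitted together by quasi-likelihood in edgeR, SE stands for the standard error of a log2FC, and a gene was called where its p-value, adjusted by Benjamini-Hochberg over all 13107 genes, was below 0.01. The labelled cell type is HCC and the tissue is liver, but of 11 hepatocyte markers only Afp, the fetal liver gene alpha-fetoprotein, was listed, and Alb and Hnf4a were not. Of 13 pluripotent cell markers, Sox2, Tfcp2l1 and Klf2 were listed, at summed levels from 14.8 to 33.1 CPM, and Pou5f1 and Nanog were not. The pluripotent sum was higher in every Ctrl library than in any Myc library, which is not the order of Zscan4. Its members differed. Tfcp2l1 was called lower with Myc in KO1 (log2FC −3.25, SE 0.413, edgeR adjusted p = 7.78e-06). In KO2 it was called higher (log2FC 1.60, SE 0.326, edgeR adjusted p = 0.000678), and by label both directions were those of Zscan4. Tfcp2l1 was 3.381 and 2.21 CPM in KO2 Myc, which overlapped KO1 Ctrl, at 2.795 and 3.023 CPM. In KO1 Myc it was 0.233 and 0.371 CPM, below KO2 Ctrl, at 1.241 and 0.585 CPM. With Ctrl, Tfcp2l1 was also called lower in KO2 than in KO1 (log2FC −1.66), where Zscan4 was not called. Sox2 and Klf2 were called lower with Myc in both lines.

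Several genes that differ between the KO lines went against the labels of the Myc libraries, and this touches each result below. Among the Ctrl libraries, Trim33 mRNA had levels of 245.6 and 258.1 CPM for WT, 123.4 and 130.4 CPM for KO1, and 200.9 and 206.8 CPM for KO2. Among the Myc libraries, those labelled WT had 130.7 and 154.7 CPM, those labelled KO1 had 185.4 and 192.5 CPM, and those labelled KO2 had 124.1 and 124.7 CPM, so that the labelled WT was not the highest with Myc. Trim33 was thus higher in KO2 than in KO1 with Ctrl (log2FC 0.68, SE 0.0693, edgeR adjusted p = 1.41e-06) and lower in KO2 than in KO1 with Myc (log2FC −0.60, SE 0.0689, edgeR adjusted p = 4.97e-06). Afp was at 0.798 and 0.920 CPM for KO1 Ctrl and 8.56 and 8.13 CPM for KO2 Ctrl, but 3.55 and 2.53 CPM in KO1 Myc and 0.297 and 0.221 CPM in KO2 Myc. In WT, Afp was 33.0 and 30.2 CPM with Ctrl and 25.1 and 19.5 CPM with Myc, above every KO library with either vector. The 4 listed fibroblast markers (Col1a1, Col1a2, Col3a1 and Pdgfra, of 6) summed to between 548.9 and 604.7 CPM in KO1 Ctrl and between 81.8 and 92.4 CPM in KO2 Ctrl, against 53.8 to 60.2 CPM in KO1 Myc and 514.3 to 534.5 CPM in KO2 Myc. Of these 4, Pdgfra alone was not called between the KO lines with either vector (log2FC of KO2 against KO1 0.24 with Ctrl and 0.47 with Myc). Across genes, the log2FC of KO2 against KO1 with Ctrl and the log2FC with Myc, which share no library, had a Pearson correlation of −0.732 over 13107 genes, which are not independent replicates. Of 1301 genes called in both of these comparisons, 36 (2.77%) changed in the same direction and 1265 in opposite directions. On the scale of the mean log2 CPM per group, the distance over all genes was 57.5 between KO1 Ctrl and KO2 Myc and 57.0 between KO2 Ctrl and KO1 Myc, but 80.9 between both KO1 groups and 89.7 between both KO2 groups. Between WT Ctrl and WT Myc it was 76.3. The labels are kept here as given, in the wording "the libraries labelled". For the Zscan4 genes, Myc effects are also given with the KO1 and KO2 names of the Myc libraries crossed. The numbers of genes called in a list of other embryo genes and among all genes are given that way too. This alternative was chosen after seeing the data. All other Myc effects were tested by label only, although levels of some genes are compared with the names crossed.

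**Figure D1:**
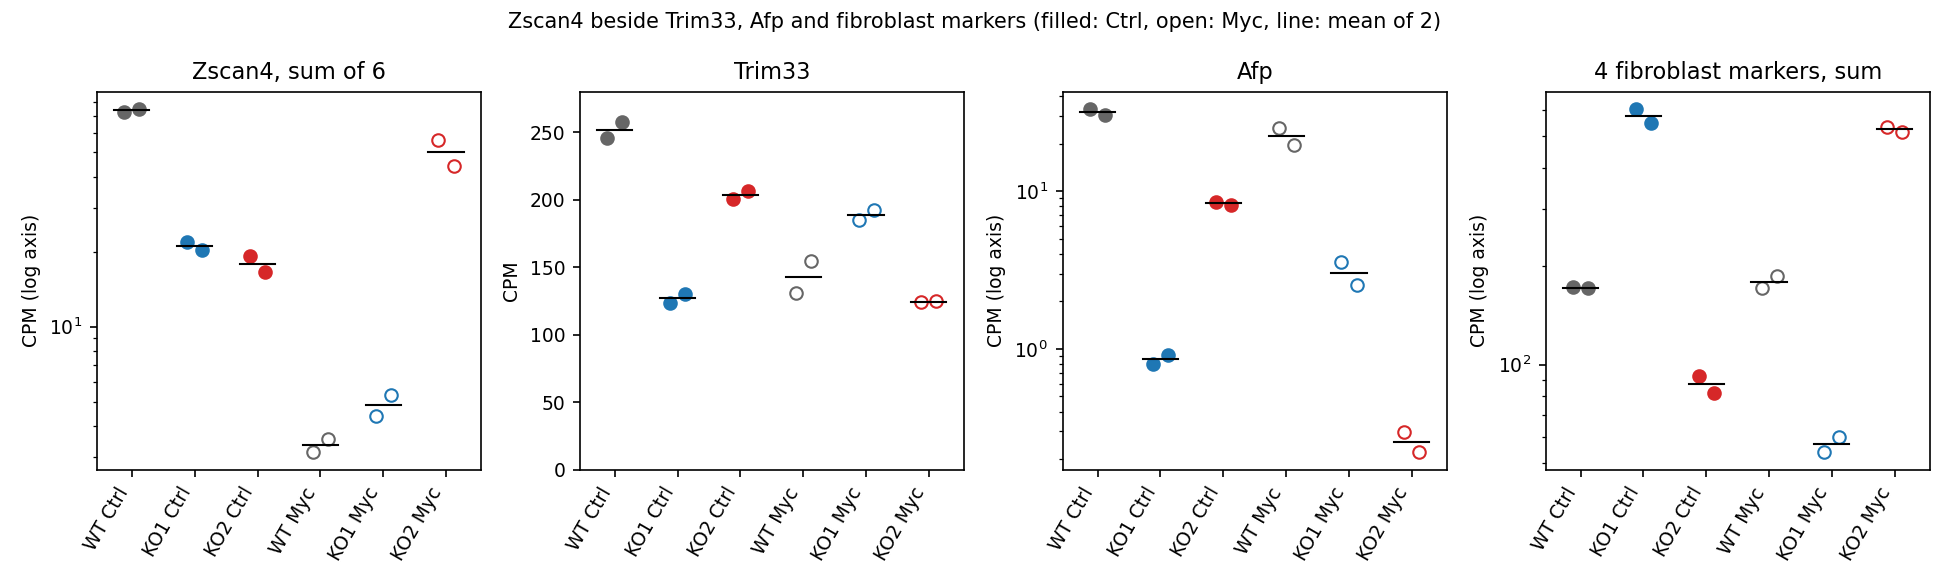
CPM of the summed Zscan4 genes, Trim33, Afp and the sum of 4 fibroblast markers in the 12 libraries by labelled group (points: libraries, lines: mean of 2; log axes except for Trim33). Afp and the fibroblast markers of KO1 Ctrl resemble those of KO2 Myc, and those of KO2 Ctrl resemble those of KO1 Myc, while Zscan4 is high in KO2 Myc and in WT Ctrl.

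The Myc transcript itself, as a check of the vector, was 432.8 and 439.0 CPM in WT Ctrl and 455.9 and 457.6 CPM in WT Myc. Levels for KO1 were 186.4 and 196.4 CPM with Ctrl and 620.9 and 645.8 CPM with Myc, and those for KO2 were 210.3 and 218.5 CPM with Ctrl and 459.4 and 498.8 CPM with Myc. Myc mRNA therefore differed little between both WT groups and was higher in every KO Myc library than in any KO Ctrl library. How the reads of the vector were counted was not tested.

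Summed over the 6 genes, Zscan4 was highest in the WT Ctrl libraries, at 72.98 and 74.6 CPM (mean 73.8 ± 1.14, SD, n = 2). The libraries labelled KO2 Myc followed, at 56.17 and 43.98 CPM (mean 50.1 ± 8.63, SD, n = 2). The sum of KO1 Ctrl was 21.89 and 20.24 CPM, and that of KO2 Ctrl was 19.14 and 16.59 CPM. The lowest sums were those of KO1 Myc, at 4.36 and 5.31 CPM, and of WT Myc, at 3.12 and 3.55 CPM. No libraries of neighboring groups overlapped in this order. The step between KO1 Ctrl and KO2 Ctrl did not pass the test, and the step between KO1 Myc and WT Myc was not tested. Between the highest and the lowest group the levels differed 22.0-fold, from 1033 and 1091 counts in WT Ctrl to 48 and 60 counts in WT Myc. The counts behind the sum in the other groups were 329 and 308 in KO1 Ctrl, 293 and 255 in KO2 Ctrl, 75 and 86 in KO1 Myc, and 947 and 796 in KO2 Myc.

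Each of the 6 genes followed this pattern. Zscan4f, a protein-coding copy and the row with most counts, with Ctrl was at 17.3 and 18.2 CPM for WT, 4.99 and 4.47 for KO1, and 4.25 and 3.903 for KO2. With Myc, Zscan4f was 0.650 and 0.887 CPM in WT, 1.05 and 1.30 in the libraries labelled KO1, and 12.6 and 10.7 in those labelled KO2. Zscan4c, the protein-coding copy closest to Zscan4f, was 16.5 and 16.4 CPM (WT Ctrl), 4.26 and 4.27 CPM (KO1 Ctrl), 4.18 and 3.32 CPM (KO2 Ctrl), 0.585 and 0.828 CPM (WT Myc), 0.988 and 1.42 CPM (KO1 Myc) and 11.8 and 9.94 CPM (KO2 Myc). Both copies were thus high in WT Ctrl and KO2 Myc, intermediate in both KO Ctrl groups and low in WT Myc and KO1 Myc.
Zscan4d, the copy with most sequence of its own, was 9.33 and 9.64 CPM (WT Ctrl), 2.86 and 2.17 CPM (KO1 Ctrl), 2.55 and 1.69 CPM (KO2 Ctrl), 0.325 and 0.355 CPM (WT Myc), 0.756 and 0.680 CPM (KO1 Myc) and 7.24 and 5.30 CPM (KO2 Myc). Its order of the groups was that of the sum, although KO1 Ctrl and KO2 Ctrl overlapped. Zscan4a, Zscan4b and Zscan4e ranged from 8.55 to 11.5 CPM in WT Ctrl and from 5.91 to 8.78 CPM in KO2 Myc. In KO1 Ctrl and KO2 Ctrl these 3 genes lay between 2.28 and 3.73 CPM, and in WT Myc and KO1 Myc between 0.355 and 0.803 CPM, at 6 to 13 counts per library. For these 3 genes, WT Myc and KO1 Myc overlapped.

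**Figure D2:**
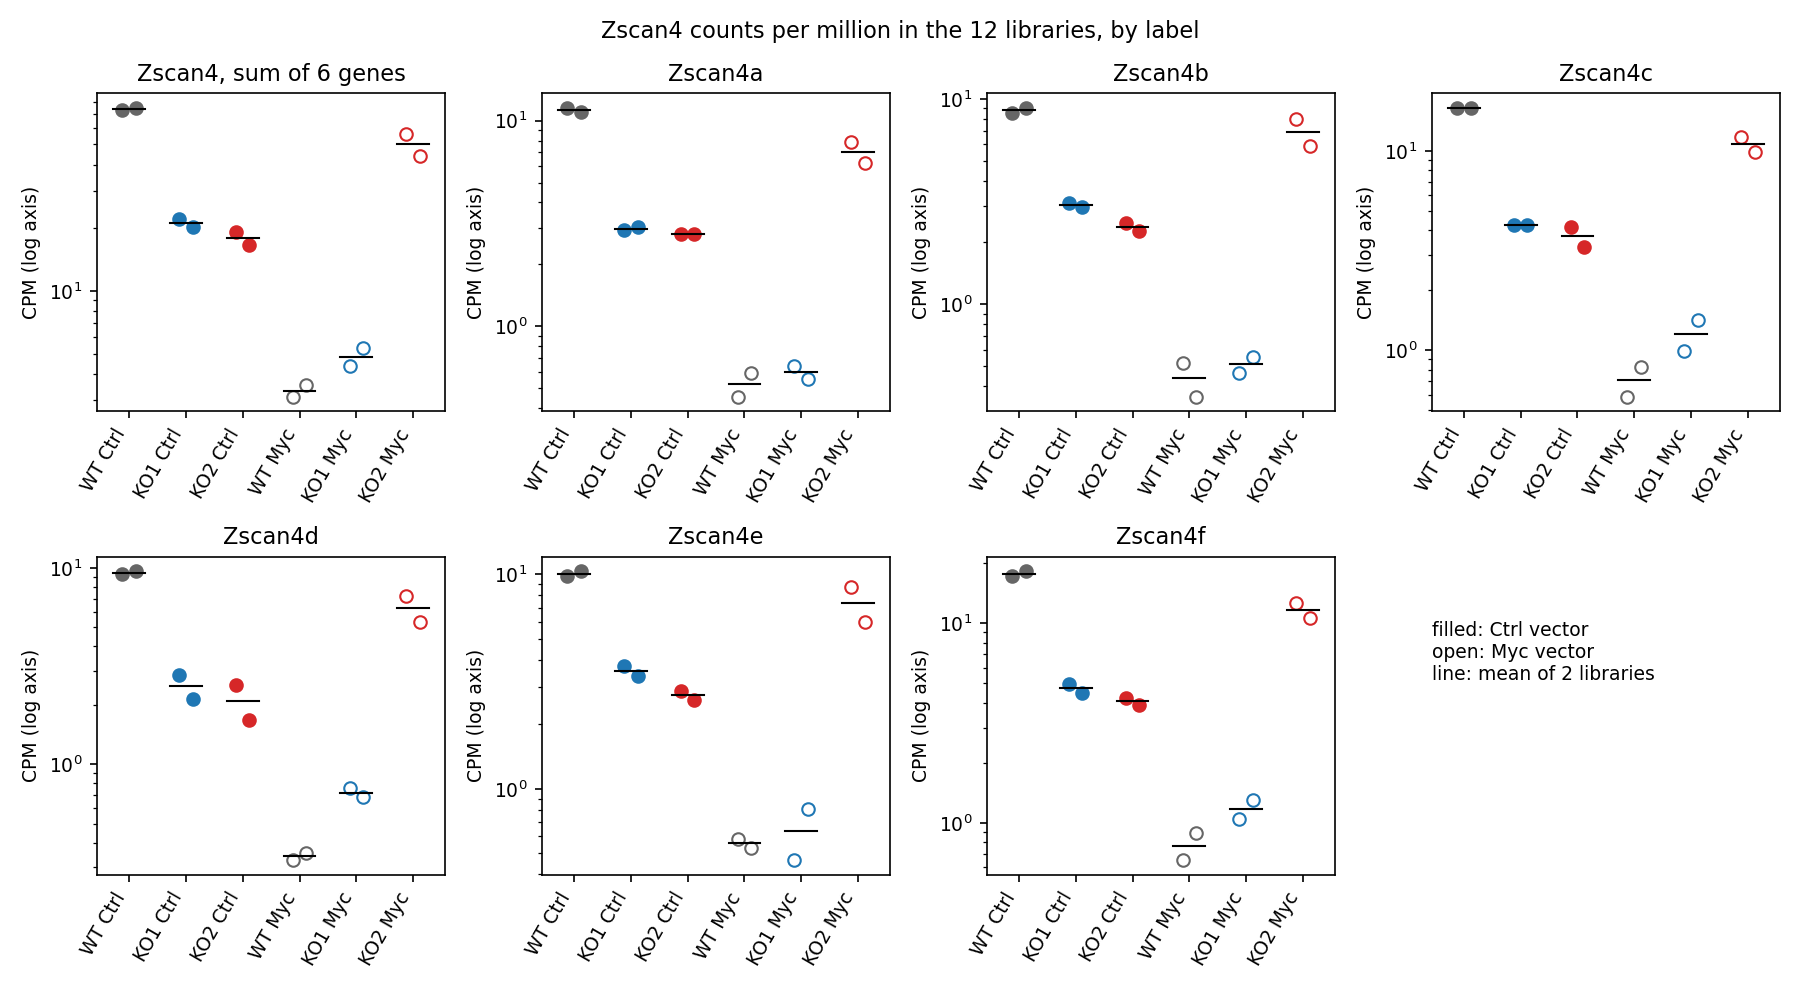
CPM (log axes) of the sum of 6 Zscan4 genes and of each gene in the 12 libraries, by labelled group (points: libraries; lines: mean of 2). In every panel WT Ctrl and KO2 Myc are highest, both KO Ctrl groups are intermediate, and WT Myc and KO1 Myc are lowest.

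Log2 CPM of the members correlated over the 12 libraries with Pearson's r between 0.978 and 0.998 in the 15 pairs of genes. This is a description only, since the libraries are shared and reads of 1 copy may be counted in another. Zscan4f took between 22.5% and 24.2% of the Zscan4 counts of a group, Zscan4c between 20.3% and 24.8%, Zscan4a between 12.4% and 15.7%, Zscan4b between 10.6% and 14.4%, Zscan4e between 13.04% and 16.8%, and Zscan4d between 10.2% and 14.9%. The share of Zscan4b was lowest in KO1 Myc, at 17 of 161 counts (10.6%, exact 95% confidence interval 6.27% to 16.4%), and highest in KO1 Ctrl, at 92 of 637 counts (14.4%, interval 11.8% to 17.4%). These intervals overlap, and they cover counting error only. Shares are shares of reads counted and not levels per length.

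In the libraries labelled KO1, Zscan4 was lower with Myc than with Ctrl in all 6 genes. The sum fell from 21.1 ± 1.17 to 4.84 ± 0.673 CPM (SD, n = 2 each), with a log2FC of −2.13 (SE 0.155, edgeR adjusted p = 1.49e-08). The fall was smallest for Zscan4d (log2FC −1.80, SE 0.334, edgeR adjusted p = 0.000332) and largest for Zscan4b (log2FC −2.56, SE 0.315, edgeR adjusted p = 5.38e-06). The other 4 genes lay between these, from −2.48 for Zscan4e to −1.83 for Zscan4c. Of all genes, 18.2% were called lower in this comparison, and 17.9% higher. With the names crossed, the libraries labelled KO1 Myc were set against KO2 Ctrl, and the sum had a log2FC of −1.89 (SE 0.158, edgeR adjusted p = 2.22e-07). All 6 genes were again called lower, between −2.21 and −1.55, where 14.3% of all genes were called lower and 15.3% higher.

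In the libraries labelled KO2, Zscan4 was higher with Myc than with Ctrl in all 6 genes. The sum rose from 17.9 ± 1.81 to 50.1 ± 8.63 CPM (SD, n = 2 each), with a log2FC of 1.49 (SE 0.112, edgeR adjusted p = 2.19e-08). Single genes ranged from 1.32 for Zscan4a to 1.56 for Zscan4d, with standard errors from 0.145 to 0.219. Of all genes, 20.2% were called higher in this comparison and 18.6% lower. With the names crossed, the libraries labelled KO2 Myc were set against KO1 Ctrl, and the sum had a log2FC of 1.25 (SE 0.11, edgeR adjusted p = 3.06e-07). All 6 genes were called higher, between 1.05 and 1.35, where 13.6% of all genes were called higher and 15.2% lower. The direction of neither Myc effect therefore depended on which KO Ctrl group was used.

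Between the KO lines with the Ctrl vector, 0 of the 6 Zscan4 genes were called by edgeR, by DESeq2 or at an unadjusted p below 0.05. The sum was 21.1 CPM in KO1 and 17.9 CPM in KO2, with a log2FC of KO2 against KO1 of −0.24 (SE 0.125, edgeR adjusted p = 0.171). Single genes ranged from −0.37 to −0.09. Of all genes, 8.33% were called higher and 9.96% lower in KO2. A p-value above the threshold does not show that the lines were alike.
With the Myc vector, all 6 genes were higher in the libraries labelled KO2 than in those labelled KO1. The log2FC of the sum was 3.37 (SE 0.138, edgeR adjusted p = 1.95e-11), a 10.4-fold difference, and single genes ranged from 3.11 for Zscan4d to 3.74 for Zscan4b. Of all genes, 9.35% were called higher and 9.14% lower in this comparison.

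Since the Myc effect went in opposite directions in KO1 and KO2, the difference of both effects was tested itself. The Myc effect on the sum was greater in KO2 than in KO1 by 3.61 on the log2 scale (SE 0.191, edgeR adjusted p = 2.43e-10), and the difference ranged from 3.35 to 4.09 in single genes. All 6 genes passed, where 26.3% of all genes passed in either direction. With the names crossed, the effect in the libraries labelled KO2 Myc minus that in the libraries labelled KO1 Myc was 3.13 (SE 0.192, edgeR adjusted p = 1.07e-07). All 6 genes passed this crossed test too, between 2.86 and 3.44, where 3.62% of all genes passed in either direction.

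**Figure D3:**
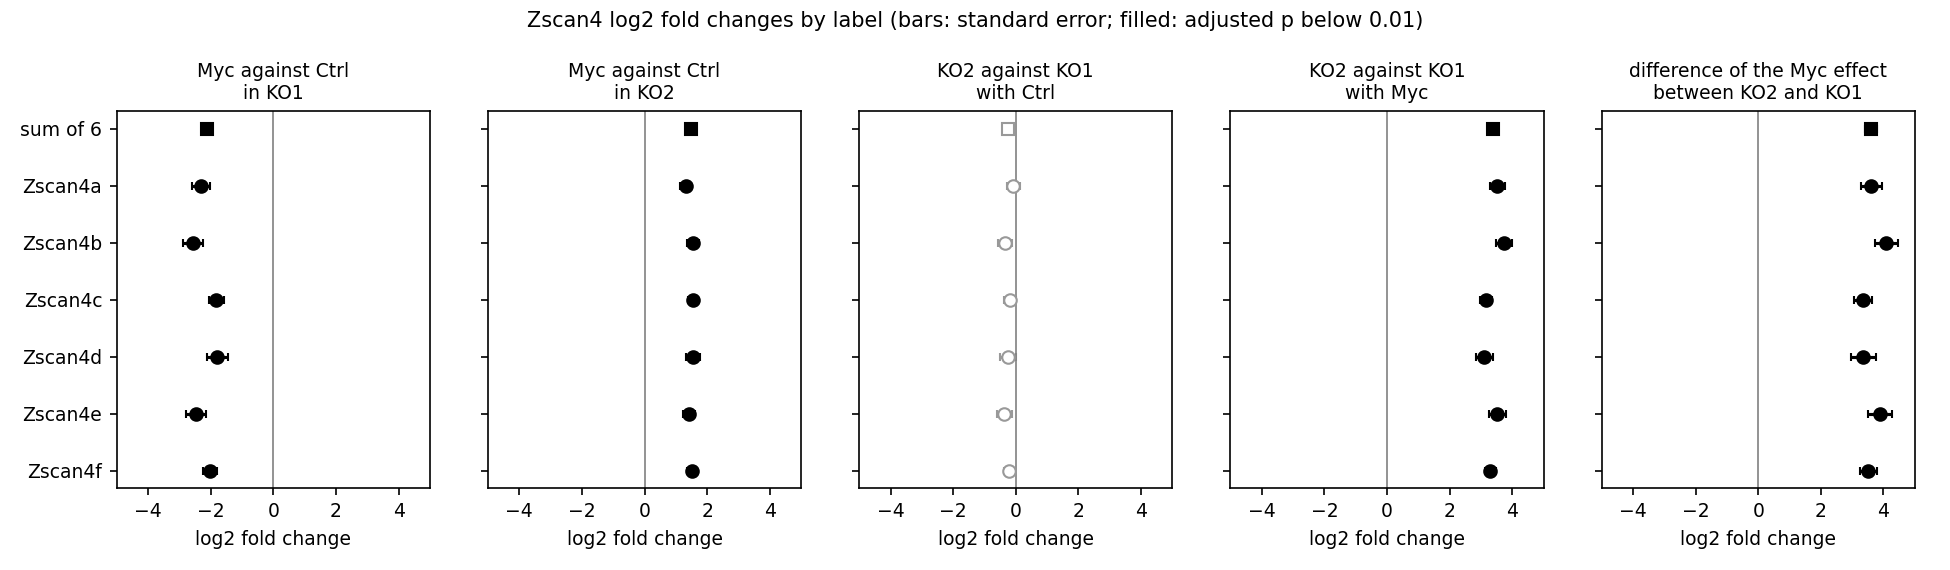
Log2 fold changes of the sum and of each Zscan4 gene in the 5 comparisons that use no WT library, by label (bars: standard error; filled: adjusted p below 0.01). All 7 values lie below 0 for Myc in KO1 and above 0 for Myc in KO2, and none is filled for KO2 against KO1 with Ctrl.

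The comparisons with WT libraries are a description. With Myc, the sum in WT fell by 4.46 on the log2 scale, and single genes fell by between 4.16 (Zscan4e) and 4.77 (Zscan4d). These falls held ranks 19 to 40 among all 13107 genes, and it is this fall that chose the genes. The rule is by symbol, so it has no threshold. With Ctrl, the sum was 3.50-fold lower in KO1 than in WT (log2FC −1.81) and 4.13-fold lower in KO2 than in WT (log2FC −2.05). With Myc, the sum in the libraries labelled KO1 differed from WT by a log2FC of 0.53, and that in the libraries labelled KO2 by 3.9.

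A list of 35 other genes of the 2-cell stage was examined next, since these genes are transcribed together with Zscan4 in embryos and stem cells. Of these, 12 were listed, and neither Dux, Zfp352 nor Tcstv1 was among them. With Myc in KO1, 2 of the 12 were called higher and 1 lower, with a median log2FC of −0.19, against 0.01 for all genes, of which 17.9% were called higher and 18.2% lower. With Myc in KO2, 6 were called higher and 1 lower, with a median of 1.37, against 0.02 for all genes, of which 20.2% were called higher and 18.6% lower. DESeq2 called 2 higher in that comparison. In KO2 against KO1 with Myc, 8 were called higher and 1 lower, with a median of 2.42, against 0.00 for all genes, of which 9.35% were called higher and 9.14% lower. With Ctrl, 1 was called higher in KO2 than in KO1 and 0 lower, where 8.33% of all genes were called higher and 9.96% lower. The counts in KO1 and with Ctrl were near these shares. With the names crossed, 9 of the 12 were called higher and 0 lower in the libraries labelled KO2 Myc than in KO1 Ctrl (all genes: 13.6% and 15.2%). In those labelled KO1 Myc, 1 was called higher and 1 lower than in KO2 Ctrl (all genes: 15.3% and 14.3%). The medians did not move when genes with at most 3 counts in every library of a group were set to their bound. The counts behind these genes are low, and under a filter at a mean of 5 CPM the number called lower in KO1 and those called higher in KO2 fell to 0. The number called higher in KO2 against KO1 with Myc also fell to 0 there. Genes of low counts are removed by that filter, so these zeros do not show reversed calls.

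Gm4340, 1 of these genes, was 9.04 and 5.40 CPM (WT Ctrl), 2.73 and 2.497 CPM (KO1 Ctrl), 2.22 and 2.60 CPM (KO2 Ctrl), 0.195 and 0.532 CPM (WT Myc), 0.698 and 0.803 CPM (KO1 Myc) and 4.21 and 3.20 CPM (KO2 Myc). Its groups stood in the order of the Zscan4 sum, except that KO1 Ctrl and KO2 Ctrl overlapped. It was the only gene of the list called lower with Myc in KO1 (log2FC −1.79, SE 0.392, edgeR adjusted p = 0.00127), a call that was lost without either KO1 Ctrl replicate 1 or KO1 Myc replicate 1.
Gm5662 and Gm8300, which resemble the translation initiation factor Eif1a and are 98.2% identical in coding sequence, were called higher with Myc in KO2, with log2FC of 1.39 and 1.34. Gm2016, which is 99.1% identical to Gm5662, had a log2FC of 0.24 in that comparison and did not pass (edgeR adjusted p = 0.221). Gm5662 was 2.26 and 2.46 CPM in WT Ctrl and 2.25 and 2.04 CPM in KO2 Myc, between 0.585 and 1.05 CPM in both KO Ctrl groups, and between 0.178 and 0.432 CPM in WT Myc and KO1 Myc. That is the order of the groups seen for Zscan4, except that KO1 Ctrl and KO2 Ctrl overlapped.
The deubiquitinase gene Usp17la went another way. It was 21.6 and 25.8 CPM (WT Ctrl), 1.40 and 1.51 CPM (KO1 Ctrl), 7.32 and 10.3 CPM (KO2 Ctrl), 17.6 and 19.8 CPM (WT Myc), 15.8 and 17.2 CPM (KO1 Myc) and 3.44 and 4.75 CPM (KO2 Myc). By label, its log2FC with Myc was 3.50 for KO1 (SE 0.222, edgeR adjusted p = 3.12e-09) and −1.10 for KO2 (SE 0.194, edgeR adjusted p = 0.000196), opposite to Zscan4 in both. With the names crossed, Usp17la was higher in KO1 Myc than in KO2 Ctrl and also higher in KO2 Myc than in KO1 Ctrl. These crossed differences of Usp17la were not tested. Within each vector, Usp17la and Afp had the same order of KO1 and KO2.

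The genes whose pattern was most like that of the summed Zscan4 counts were sought among 12089 genes with a mean of at least 1 CPM, by Pearson's r of log2 CPM over the 12 libraries. The highest r was that of Gm5662, at 0.975, followed by Gm4340 (0.966), Crim1 (0.956), Gm13043 (0.954), Gm13040 (0.953), Gm13057 (0.951), Tmem181b-ps (0.950) and BC080695 (0.941). Gm13040, Gm13043 and Gm13057, on chromosome 4, are between 99.9% and 100% identical in coding sequence, so their nearly equal values may hold the same reads. They are 95.4% identical to BC080695, which RefSeq names Pramel20, a member of the Prame-like gene family. Gm13043 was 3.53 and 6.15 CPM in WT Ctrl, 4.45 and 4.59 in KO2 Myc, between 0.520 and 1.33 in both KO Ctrl groups, and between 0.0581 and 0.296 in WT Myc and KO1 Myc.
Crim1 and Tmem181b-ps stand out by their depth, with at least 2111 and 469 counts per library. Crim1, a transmembrane protein that binds BMP ligands, was 273.8 and 274.2 CPM (WT Ctrl), 212.5 and 211.4 CPM (KO1 Ctrl), 194.0 and 194.4 CPM (KO2 Ctrl), 137.3 and 155.7 CPM (WT Myc), 138.4 and 152.1 CPM (KO1 Myc) and 213.4 and 212.9 CPM (KO2 Myc). Its highest and lowest library differed far less than those of Zscan4. The most negative correlations were those of Gdpd5 (−0.921), Tsc22d4 (−0.902), the sphingosine kinase gene Sphk1 (−0.9) and Cln3 (−0.898), a gene for a lysosomal membrane protein. These correlations are a description over 12 libraries that fall into 6 groups, and 17 of the genes compared had an r above 0.9.

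**Figure D4:**
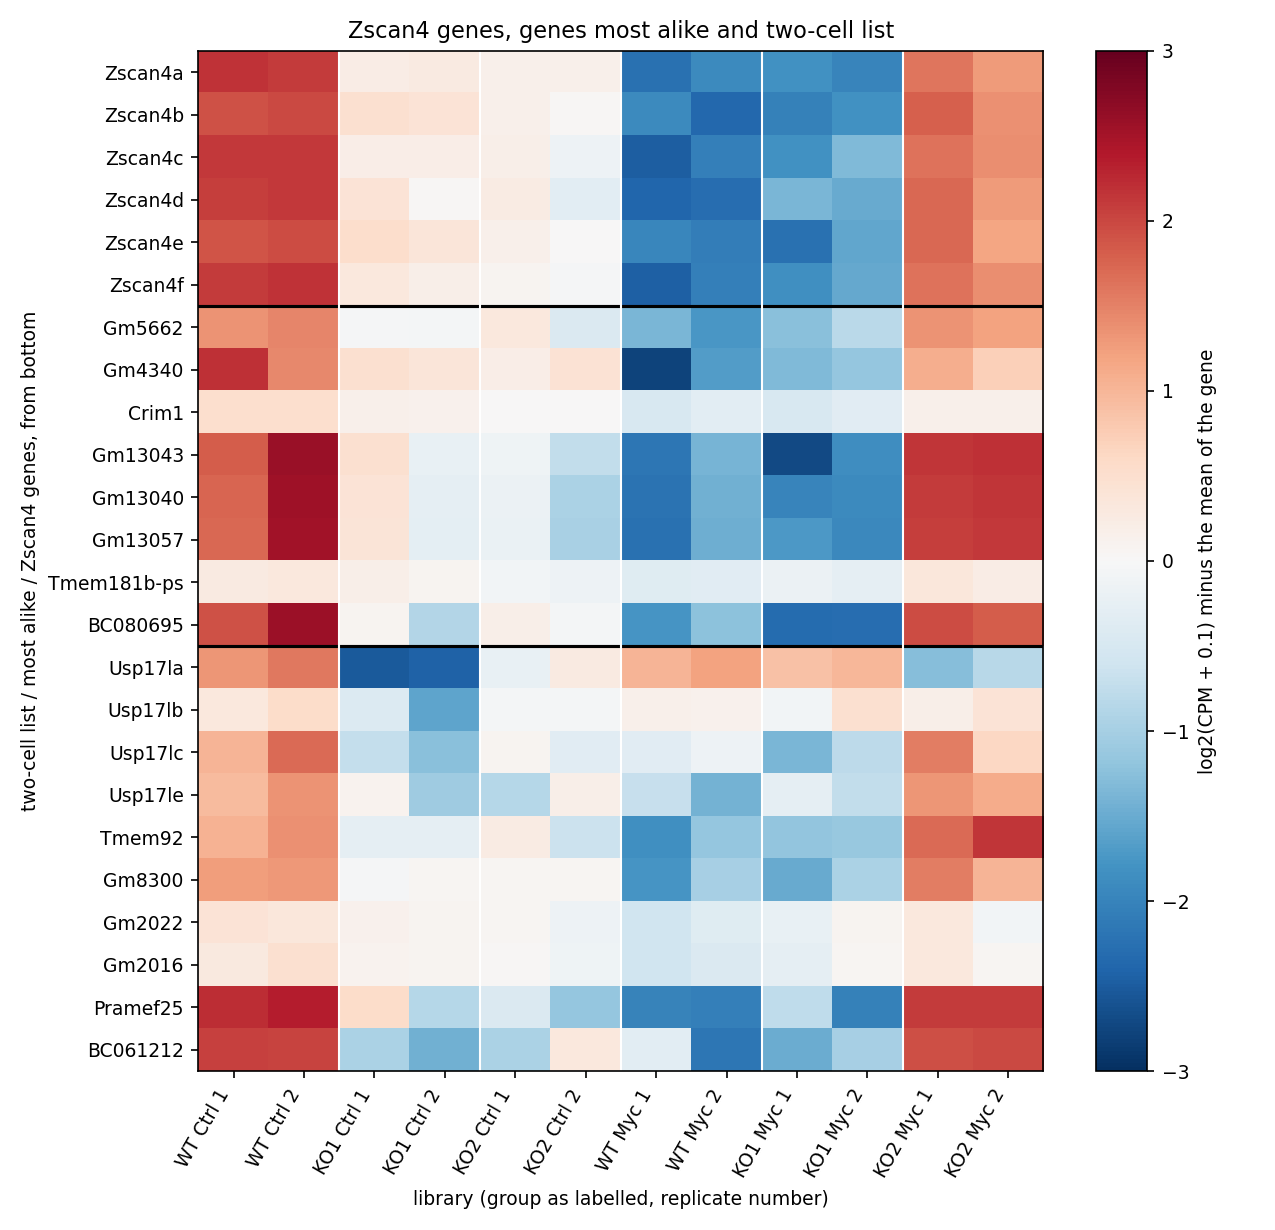
Log2(CPM + 0.1) of each gene minus its mean over the 12 libraries, for the 6 Zscan4 genes (top), the 8 genes most alike (middle) and the other listed genes of the 2-cell stage (bottom); columns are libraries by label. Most rows are high in WT Ctrl and KO2 Myc and low in WT Myc and KO1 Myc, and Usp17la is low in KO1 Ctrl and KO2 Myc.

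Genes that are known to hold back the 2-cell state were listed for 31 repressors, all of which were counted. With Myc in KO1, 10 were called higher and 2 lower, and with Myc in KO2, 5 higher and 5 lower, with medians of 0.08 and −0.04 on the log2 scale. Of all genes, 17.9% were called higher and 18.2% lower in KO1, and 20.2% higher and 18.6% lower in KO2. Pcgf6, a subunit of a Polycomb complex, was called higher with Myc, both for KO1 (log2FC 0.51, SE 0.0776, edgeR adjusted p = 4.62e-05) and for KO2 (log2FC 0.51, SE 0.0763, edgeR adjusted p = 3.9e-05). Max, the partner of Myc and a member of that complex, was also called higher in both, with log2FC of 0.37 and 0.26. Mga, which pairs with Max there, was called higher in KO1 (log2FC 0.60, SE 0.0988, edgeR adjusted p = 0.000114) and did not pass in KO2 (log2FC −0.10, SE 0.0977, edgeR adjusted p = 0.4), and the difference for Mga was not tested.
Setdb1, which methylates histone H3 at retroviral elements, was called higher with Myc in KO1 (log2FC 0.40) and lower in KO2 (log2FC −0.26), opposite to Zscan4. Its cofactor Atf7ip likewise was called in both, with 0.56 for KO1 and −0.68 for KO2. Setdb1 and Atf7ip were also higher in KO2 than in KO1 with Ctrl, at 0.42 and 0.76, and lower in KO2 than in KO1 with Myc, at −0.24 and −0.48. Like Afp and Trim33, both were thus higher in KO2 than in KO1 with Ctrl and lower in KO2 than in KO1 with Myc. Whether these calls follow the Myc vector or the KO line cannot be told apart with the labels in doubt.
Among the other repressors, Rif1 and Uhrf1 were called higher in KO2 than in KO1 with Ctrl, at 0.42 and 0.40. Kdm1a, a histone demethylase, was called lower in KO2 than in KO1 with Myc (−0.26), and Ncl and Rnf2 were called higher (0.21 and 0.25). The nucleolar protein gene Ncl was called higher with Myc for KO1 (0.17) and for KO2 (0.38). The SUMO gene Sumo2 was called lower with Myc for both (−0.25 and −0.29). In KO2 against KO1, 5 of the 31 were called higher and 0 lower with Ctrl (all genes: 8.33% and 9.96%), and 2 higher and 3 lower with Myc (all genes: 9.35% and 9.14%), the latter near the shares of all genes.

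Of 8 activators of the 2-cell state, 5 were counted. With Myc, 1 was called higher and 2 lower in KO1, and 1 higher and 2 lower in KO2. Among all genes these shares were 17.9% and 18.2% in KO1 and 20.2% and 18.6% in KO2, and a list of 5 genes cannot be told apart from them. Tbx3, a T-box factor, was lower with Myc, both for KO1 (log2FC −1.45, SE 0.0791, edgeR adjusted p = 5.56e-10) and for KO2 (log2FC −0.56, SE 0.0774, edgeR adjusted p = 1.79e-05). Gata2 was 4.33 and 3.62 CPM in KO1 Ctrl and 1.98 and 1.30 CPM in KO1 Myc, and was called lower there. Dppa2, a germ cell and early embryo gene, was 0.133 and 0.197 CPM in KO1 Ctrl, 0.872 and 0.865 in KO1 Myc, 0.914 and 0.651 in KO2 Ctrl and 0.0593 and 0.221 in KO2 Myc. By label, Dppa2 was called higher with Myc in KO1 and lower in KO2, opposite to Zscan4, from very few counts. Its levels in KO1 Ctrl lay within those of KO2 Myc, and its levels in KO1 Myc lay within those of KO2 Ctrl. Whether its calls follow the Myc vector or the KO line was not tested. Trp53, which encodes p53, was called higher with Myc in KO2 (log2FC 0.20).

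Telomere genes were listed because of the known role of Zscan4. Of 26 genes, 23 were counted, among them no Tert. With Myc, 7 were called higher and 1 lower in KO1 (all genes: 17.9% and 18.2%), and 5 higher and 1 lower in KO2 (all genes: 20.2% and 18.6%). In KO2 against KO1 with Myc, 0 were called higher and 2 lower (all genes: 9.35% and 9.14%). The 5 called higher in KO2 and the 2 called lower are near the shares of all genes. Of 26 germline genes, 1 was counted, Sycp3, and it was called in none of these comparisons. Of 18 other genes with names beginning with Zscan or Zkscan, 4 were called higher and 0 lower with Myc in KO1 (all genes: 17.9% and 18.2%), and 7 higher and 1 lower in KO2 (all genes: 20.2% and 18.6%). In KO2 against KO1 with Myc, 0 of these 18 were called in either direction, where 9.35% of all genes were called higher and 9.14% lower.

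The 10 counted genes on either side of the cluster, in the order of the RefSeq gene table, were examined next. With Myc in KO1, 3 of the 20 were called higher and 1 lower (all genes: 17.9% and 18.2%), and with Myc in KO2, 4 higher and 1 lower (all genes: 20.2% and 18.6%), so that the counts called higher were near the shares of all genes. In KO2 against KO1 with Myc, 1 was called higher and 0 lower (all genes: 9.35% and 9.14%), with a median log2FC of 0.01. Before the cluster, the nearest genes were Gm6900, Zik1 and 2810047C21Rik1, with log2FC of KO2 against KO1 with Myc of −0.19, 0.32 and 0.09. After the cluster, the zinc finger genes Zfp551, Zfp606 and Zfp329 had values of 0.56, 0.09 and −0.07. None of these 6 was called in that comparison. Gm6900, the nearest, was 121.0 and 121.9 CPM in WT Ctrl and between 51.5 and 77.1 CPM in all other libraries, so that it was high in WT Ctrl as Zscan4 was, but not in KO2 Myc.

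**Figure D5:**
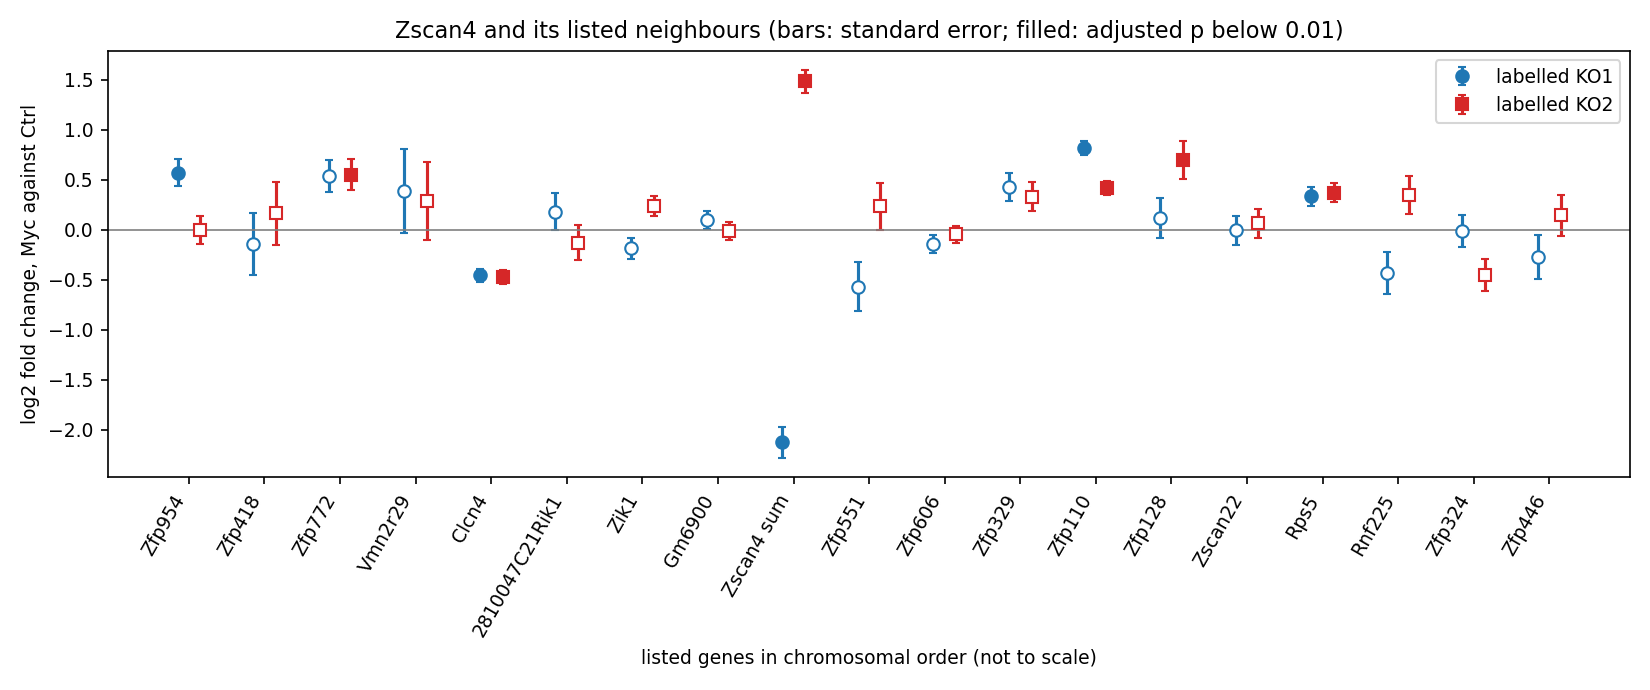
Log2 fold changes of Myc against Ctrl in the libraries labelled KO1 (circles) and KO2 (squares) for the summed Zscan4 genes and 18 of the 20 counted neighbors in chromosomal order (bars: standard error; filled: adjusted p below 0.01); Peg3 and Usp29, with libraries at 0 counts, are left out. The Zscan4 sum lies at −2.13 and 1.49, and no plotted neighbor is called in opposite directions.

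Markers of other cell types moved in some of the same comparisons. From KO1 Ctrl to KO1 Myc the fibroblast sum fell with Zscan4, and from KO2 Ctrl to KO2 Myc it rose with it. Of its members, the collagen genes rose in KO2, and Pdgfra did not (log2FC −0.43, SE 0.159, edgeR adjusted p = 0.033). In WT, where the Zscan4 sum differed most, the fibroblast sum was between 171.2 and 172.2 CPM with Ctrl and between 171.4 and 186.3 CPM with Myc. Its members did not all stay level there, since Col3a1 was 6.22 and 5.54 CPM with Ctrl and 28.6 and 34.8 CPM with Myc, and Col1a1 was 29.5 and 29.8 CPM with Ctrl and 18.6 and 21.7 CPM with Myc. With the names crossed, the fibroblast sum differed less, from 81.8 to 92.4 CPM in KO2 Ctrl and 53.8 to 60.2 CPM in KO1 Myc. In the other crossed pair it was 548.9 to 604.7 CPM in KO1 Ctrl and 514.3 to 534.5 CPM in KO2 Myc. There the fibroblast sum was slightly lower with Myc, where Zscan4 was higher. Of 4 endothelial markers 0 were listed, and of 5 macrophage markers only Cd68 was, at 1.48 to 6.30 CPM. Of 5 cholangiocyte markers, Krt19, Sox9 and Spp1 were listed. Their sum was 2789 to 2835 CPM in WT Ctrl and 1289 to 1484 CPM in WT Myc, and 2035 to 2110 CPM in KO1 Ctrl and 1087 to 1096 CPM in KO1 Myc, lower with Myc as Zscan4 was. It was also lower with Myc in KO2, at 1806 to 1862 CPM with Ctrl and 1244 to 1347 CPM with Myc, where Zscan4 was higher. Most of this sum was Spp1, at 2001 and 1933 CPM in KO1 Ctrl. Krt19 rose with Myc in KO1, from 48.6 and 46.8 CPM to 134.6 and 138.9 CPM (log2FC 1.52, SE 0.0936, edgeR adjusted p = 2.2e-09). In KO2 Krt19 fell (log2FC −1.23), from 112.3 and 119.4 CPM to 48.9 and 49.6 CPM. By label, Krt19 was thus opposite to Zscan4 in both lines. Its levels in KO2 Myc were close to those in KO1 Ctrl, and Krt19 was not tested with the names crossed. Sox9 and Spp1 were called lower with Myc in both lines. The part of other cell types in the result was not tested.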

How the data were processed

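RNA-seq libraries of p19/Nras cells were grouped by their GEO labels. Per the labels and the methods of the study, the authors mapped reads to mm9 with STAR 2.5.4, and their processing notes also name edgeR 3.26.8, bcl2fastq 2.20 and FastQC 0.11.5. The authors deposited whole-number counts per gene. The counter, annotation and any filter are not given in the sources used here. No normalization was detected in the counts, although the table is named as normalized. The deposited tables of the authors' own edgeR comparisons (fold changes and p-values) were not used.

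Counts were fitted with edgeR 4.0.16 (limma 3.58.1, R 4.3.3) with TMM factors and 1 coefficient per group. The filter filterByExpr removed 0 of 13107 genes. For the sum, the 6 Zscan4 rows were replaced by 1 row and the table of 13102 rows was refitted. Standard errors are the absolute log2FC divided by the square root of F. The threshold was an adjusted p-value of 0.01. Log2 CPM used a prior count of 2. With 2 libraries per group, the tests rest on the spread shared between genes and groups. The squared difference of both replicates had a median over genes of 1.38 to 4.72 times counting noise, depending on the group, so no library was counted as a duplicate. For the Zscan4 sum it was 26 times counting noise in KO2 Myc and between 0.249 and 2.79 times in the other groups, each from 1 pair of libraries. The standard errors rest on the shared spread and do not reflect that of KO2 Myc alone. The fit was tested on simulated data. The log2FC of comparisons with WT libraries carry no p-value, since they share libraries with the rule. Replicate numbers did not pair the samples: the deviations of same-numbered libraries had correlations from −0.148 to 0.192 over 15 pairs of groups.

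Members, lists and tests were chosen with earlier results of these data known. Named genes are the Zscan4 genes, Trim33 and Myc, list regulators called in a comparison (at most 4 per list and comparison), the 8 genes most alike and 4 most opposite, and the nearest 3 neighbors on either side. Gm8300, Gm2016, Usp17la, Afp and the marker genes were named after their values were seen. Sequences are from RefSeq (GRCm38.p6) and GENCODE on mm9 and were compared with Biopython. The alternatives were DESeq2 1.42.0, other filters and scaling, the compared groups alone, a replicate block, leaving out each library, leaving out both WT Myc libraries, and crossed names of the Myc libraries (the last 2 chosen after seeing the data).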

Additional observations from a re-analysis of the deposited data

Results flagged for a closer look

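The effect of the Myc vector differed between the libraries labelled KO1 and KO2 for the summed Zscan4 counts and for all 6 genes, by edgeR's test of the difference itself. The Myc effect in KO2 minus that in KO1 was 3.61 on the log2 scale for the sum, 3.61 for Zscan4a, 4.09 for Zscan4b, 3.36 for Zscan4c, 3.35 for Zscan4d, 3.9 for Zscan4e and 3.52 for Zscan4f, with standard errors from 0.191 to 0.398 and adjusted p-values up to 4.51e-06. With the KO1 and KO2 names of the Myc libraries crossed, these differences lay between 2.86 and 3.44. Genes that separate the KO lines with Ctrl went the other way with Myc, so which of the lines shows which effect cannot be told apart.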

How the results depend on the processing

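Each Zscan4 result was recomputed under the alternatives. The sum kept its direction and its side of the threshold in every one, as did each single gene put in its place under the settings of the report, with a log2FC between −2.56 and −1.80 for Myc in KO1, 1.25 and 1.65 for Myc in KO2, −0.37 and −0.09 for KO2 against KO1 with Ctrl, 3.11 and 3.74 with Myc, and 3.13 and 4.09 for the difference. Leaving out 1 library of the compared groups gave −2.27 to −1.96, 1.30 to 1.65, −0.34 to −0.14, 3.19 to 3.54 and 3.42 to 3.78 in the same order. Single genes under the other settings ranged more widely, from −2.91 (Zscan4e) to −1.55 (Zscan4d) for Myc in KO1, with no call lost. Without KO2 Ctrl replicate 2, Zscan4d turned to 0.019 in KO2 against KO1 with Ctrl (edgeR adjusted p = 0.979), where no call existed, and its values without 1 library ranged from −0.57 to 0.019. With the replicate block the sum gave −2.13, 1.48, −0.24, 3.37 and 3.61, and the block changed no call of a Zscan4 gene. The number of genes called in KO2 against KO1 with Ctrl was 2398, 4029 with these groups alone, and 1383 to 1475 without 1 library; that with Myc was 2423, and 1519 to 1648 without 1 library. Fewer libraries were fitted in these settings. The genes of the 2-cell stage called higher with Myc in KO2 were 6, 2 with DESeq2 and 3 to 7 without 1 library (3 without either KO2 Ctrl library). At 5 to 23 counts per library in WT Myc and KO1 Myc, single Zscan4 genes are imprecise.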
